A study of Mus musculus with 7 samples.

Results

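The genes described here are *Trp53*, which encodes the transcription factor p53, and 9 genes that p53 is known to switch on: *Mdm2*, *Ccng1*, *Cdkn1a*, *Btg2*, *Bax*, *Phlda3*, *Sesn1*, *Trp53inp1* and *Zmat3*. They were picked by symbol, with earlier results of these data known, and all 10 were present among the 14819 rows of the read-count table. All 10 were also among the 14779 genes that passed the filter on low counts. RNA was sequenced from primary hepatocytes, the liver's main cells, isolated from male mice by collagenase perfusion and kept overnight in medium with serum. Hepatocytes of wild-type mice (WT, n = 4) were compared with hepatocytes of WDR6-WKO mice (n = 3), in which CRISPR–Cas9 had removed exon 2 of *Wdr6* in the whole body. Neither group received a treatment, and none was given to damage DNA. The age of these mice was not given in the sources used here. Because the knockout covers every cell of the animal, a change within hepatocytes cannot be told apart from one that follows from the loss of *Wdr6* elsewhere or earlier in life. The libraries are described as independent experiments, but the labels do not tie them to animals, so each p-value measures the spread between these libraries.

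p53 is held at a low level in resting cells because the ubiquitin ligase *Mdm2*, itself a p53 target, marks it for destruction. Damaged DNA, ribosomal stress or oncogene activity stabilise the protein, which then binds paired elements in its targets and raises genes that stop the cell cycle, repair DNA, start apoptosis or protect against oxidants. Much of this control acts on the protein, so the amount of *Trp53* mRNA is a poor guide to p53 activity, and the mRNA of the targets is the readout usually followed. In liver, p53 is known for restraining hepatocyte division and for its part in lipid and glucose metabolism, and isolation and plating of hepatocytes are themselves stressful to the cells.

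The DNA letters that p53 recognises were looked for in the promoters of the members, because they are the feature by which these genes are grouped. RefSeq promoter windows (GRCm38.p6, 250 bases before to 50 bases after a transcription start) were available for 8 members. The p53 consensus decamer was searched without mismatches, and a full element was defined as a pair of adjacent decamers with at most 2 mismatches and the central C and G of each kept. The decamer is its own reverse complement, so a match covers both strands. A full element lay in the windows of *Cdkn1a* and *Ccng1*, and 4 other members held a single exact decamer. Each sequence is printed on the strand of its gene with the matching letters in capitals.
*Cdkn1a*, full element: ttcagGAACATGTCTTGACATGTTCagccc
*Ccng1*, full element: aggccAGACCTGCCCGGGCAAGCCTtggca
*Mdm2*, decamer: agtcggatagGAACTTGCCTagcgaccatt
*Trp53*, decamer: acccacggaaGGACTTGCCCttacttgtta
*Bax*, decamer: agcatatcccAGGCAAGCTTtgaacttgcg
*Sesn1*, decamer: cttggccttcAAGCTTGTTTttgctggcct
The *Cdkn1a* window is chr17:29090923-29090952 on the plus strand and its element begins 51 bases upstream of the RefSeq start. The *Ccng1* window is chr11:40755457-40755486 on the minus strand, with the element beginning 195 bases upstream. Both full elements have 1 mismatch. The other windows are chr10:117710925-117710954 (minus) for *Mdm2*, chr11:69580274-69580303 (plus) for *Trp53*, chr7:45467080-45467109 (minus) for *Bax* and chr10:41887256-41887285 (plus) for *Sesn1*. All 6 lie upstream of the start used in the table, outside the transcript that starts there. Outside its full element, *Cdkn1a* held an exact decamer that begins 73 bases upstream of the start. Among all 32851 promoter windows, 8.36% held an exact decamer and 0.326% held a full element. These shares are by window, whereas the members were counted by gene, and the 8 members had 10 windows. The members were also picked as known p53 targets, so the shares are given as description. Windows of *Btg2* and *Phlda3* held neither, which says only that the letters are not in these 300 bases. *Trp53inp1* and *Zmat3* were not in the table.

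The libraries held 17816913 to 23668940 counted reads. *Wdr6* itself was at 5.39% of its WT level in WDR6-WKO hepatocytes (log2 fold change −4.20, edgeR adjusted p = 3.44e-12). The defining hepatocyte gene *Alb* stood at 6087 to 7934 CPM (read counts scaled to the normalised library size) across libraries. One library stood apart. In WDR6-WKO replicate 3, 24.6% of the 10674 genes with a mean of at least 5 CPM differed by more than 0.25 on the log2 scale from the mean of the other WDR6-WKO libraries, against 7.99% in replicate 1 and 12.7% in replicate 2. The difference ran with base composition and with transcript length. Genes were divided by GC content into 4 bins of equal size. In the bin with the highest GC content, 54.1 to 73.7%, the median gene was 0.09 and 0.10 above the WT mean (log2) in WDR6-WKO replicates 1 and 2 and 0.09 below it in replicate 3, at −0.09. In the bin with the lowest, 31.0 to 44.6%, the order was turned, at −0.09, −0.09 and 0.06. The WT libraries stayed within −0.04 to 0.05 in every GC bin. In 4 bins by length, replicate 3 minus the mean of replicates 1 and 2 had a median of −0.11 among the shortest transcripts (up to 2229 bases) and 0.09 among the longest (4926 bases or more). Against the WT mean, the medians of these bins went from 0.08 to −0.08 in replicate 1 and from 0.14 to −0.12 in replicate 2. Replicate 3 stayed within −0.01 to 0.01 in every length bin, so the length trend lay in replicates 1 and 2. Results are therefore given with all 7 libraries, without WDR6-WKO replicate 3, and with a correction of every library for GC content and transcript length.

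**Figure D1:**
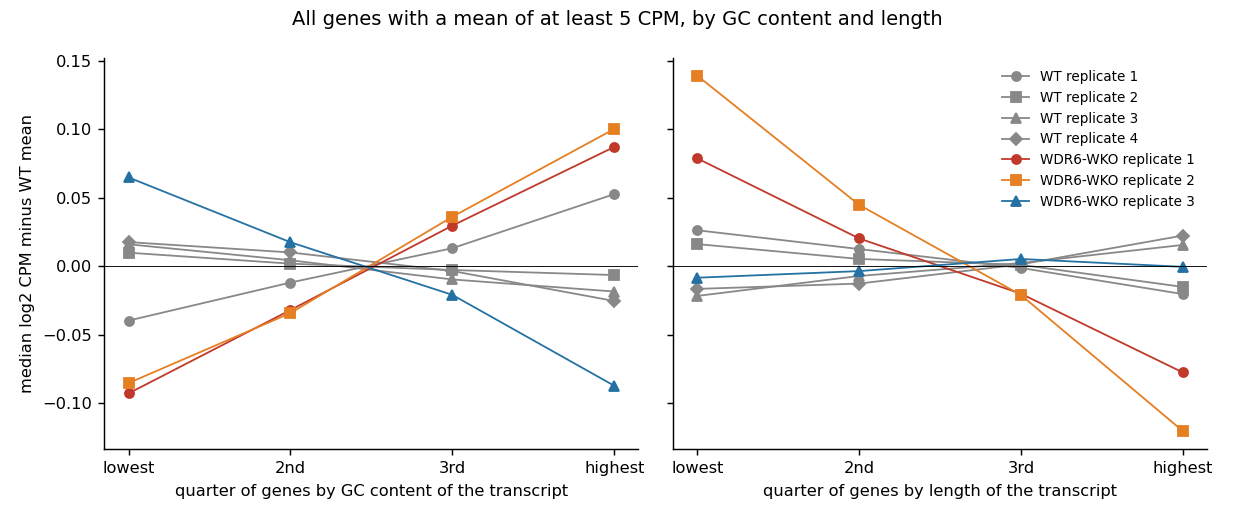
Median log2 CPM minus the WT mean in each of the 7 libraries, in 4 equal bins of genes ordered by GC content or by transcript length (genes with a mean of at least 5 CPM). WDR6-WKO replicates 1 and 2 rise with GC content from −0.09 to 0.09 and 0.10, whereas replicate 3 falls from 0.06 to −0.09.

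Of the 10 p53 genes, 2 were called at an adjusted p below 0.05 with all libraries (edgeR quasi-likelihood test, adjusted over 14779 genes), and both were higher in WDR6-WKO hepatocytes: *Cdkn1a*, 1.17-fold, and *Mdm2*, 1.12-fold. Over all genes 12.8% were called, 6.65% higher and 6.18% lower, so 2 of 10 is close to the background. None of the 10 was called lower in this edgeR fit or by DESeq2, and 2 were lower at an unadjusted edgeR p below 0.05. *Sesn1* was called lower by limma-voom, and by edgeR with median-of-ratios size factors, with a minimum of 10 counts in every library and with the correction for GC content and length, which also called *Btg2* lower. At that unadjusted level 7 of the 10 passed, 5 higher and 2 lower. The 10 fold changes split evenly in sign, with a median of 0.02 on the log2 scale against 0.01 for all genes. The CPM ranges of the genotypes were separate for *Cdkn1a*, *Mdm2* and *Sesn1*, where 23.5% of all genes were separate. The study's methods used DESeq2 with thresholds of an unadjusted p below 0.05 and a log2 change of 0.35 or more either way. Applied here to the edgeR fit, these thresholds were met by 1 member, *Phlda3*, against 10.4% of all genes. In bulk RNA, fewer cells that express a gene and less RNA per cell cannot be told apart.

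**Figure D2:**
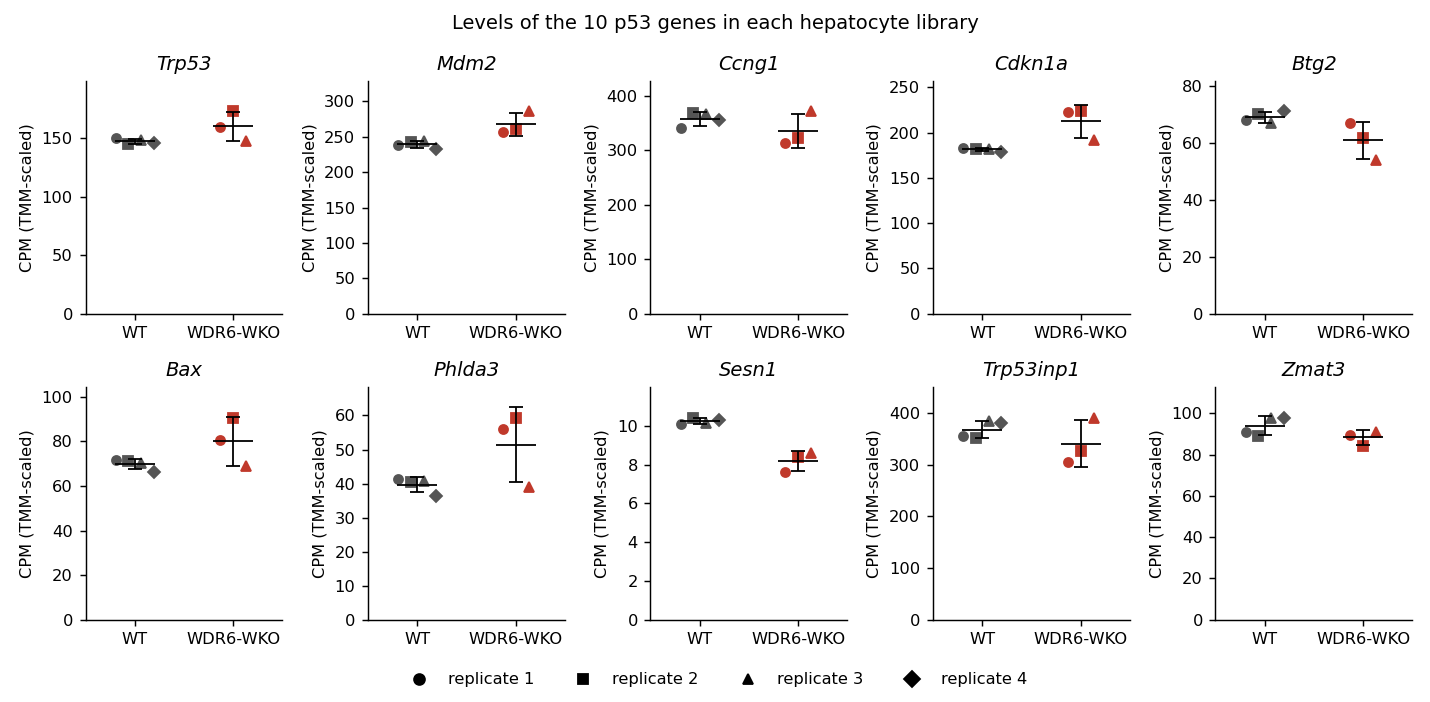
CPM of each of the 10 members in each library, with points for libraries, lines for genotype means and bars for s.d. (WT, n = 4 and WDR6-WKO, n = 3). The WDR6-WKO points lie above all WT points for Mdm2 and Cdkn1a and below all WT points for Sesn1, while the other 7 members overlap.

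Levels were compared between genes per kilobase of the union of annotated exons. In WT hepatocytes *Ccng1* was the most abundant at 102 ± 3.68 CPM per kilobase (s.d., n = 4). *Trp53inp1* (56.8 ± 2.54), *Cdkn1a* (51.1 ± 0.479), *Mdm2* (47.1 ± 0.929), *Bax* (44.3 ± 1.50) and *Trp53* (36.4 ± 0.592) followed on the same scale. *Phlda3* (25.5 ± 1.41) and *Btg2* (25.2 ± 0.687) overlapped, and *Zmat3* (8.22 ± 0.404) and *Sesn1* (2.57 ± 0.0375) were lowest. In WDR6-WKO hepatocytes *Ccng1* was again first at 95.7 ± 8.86 CPM per kilobase (n = 3) and *Sesn1* last at 2.06 ± 0.131. *Cdkn1a* moved to the second place at 59.9 ± 5.15, but its range overlapped that of the next gene, *Mdm2* (52.7 ± 3.14), and the neighbours *Mdm2*, *Trp53inp1* and *Bax* overlapped in turn. The order depends on the length used. Per kilobase of the longest transcript, a choice added after seeing the data, the WT order began with *Ccng1* (102 ± 3.68), *Cdkn1a* (87.3 ± 0.819), *Mdm2* (76.1 ± 1.50) and *Trp53inp1* (67.7 ± 3.03), and in WDR6-WKO *Cdkn1a* (102 ± 8.80) and *Ccng1* (95.7 ± 8.86) overlapped. Reads of all 10 members were present in every library of both genotypes.

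*Trp53* (chr11:69580359-69591873, plus strand, GRCm38) encodes p53. It stood at 150, 145, 148 and 146 CPM in WT replicates 1 to 4 and at 159, 173 and 148 CPM in WDR6-WKO replicates 1 to 3. WDR6-WKO replicates 1 and 2 lay above every WT library and replicate 3 lay inside the WT range. The log2 fold change was 0.12 with an s.e. of 0.05 (edgeR adjusted p = 0.164). An exact two-sided permutation test over the 7 libraries gave p = 0.0857, where the smallest value that 4 against 3 libraries allow is 0.0286. Of the 50-base stretches of *Trp53* transcripts, 3.95% also occur in other genes, including the pseudogene *Trp53-ps*, which had 27 to 61 reads a library against 2646 to 3835 for *Trp53*.

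*Mdm2* (chr10:117688875-117710758, minus strand) is the ligase that limits p53 and is induced by it, closing a feedback loop. Its level was 238, 243, 243 and 233 CPM in WT and 256, 261 and 286 CPM in WDR6-WKO. All 3 WDR6-WKO libraries lay above all 4 WT libraries, with replicate 3 the highest. Mean levels were 239 ± 4.72 CPM in WT and 268 ± 15.9 CPM in WDR6-WKO, a log2 fold change of 0.16 with an s.e. of 0.05 (edgeR adjusted p = 0.0422, exact permutation p = 0.0286). This call sat near the threshold and was lost when any WT library, or WDR6-WKO replicate 1 or 2, was left out, with adjusted p up to 0.128. With all libraries it was also lost under median-of-ratios size factors (adjusted p = 0.0503), where *Cdkn1a* and *Sesn1* were the called members, and with the replicate block (adjusted p = 0.0849). The fold change was between 0.11 and 0.19 on the log2 scale in all 15 alternative analyses.

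*Ccng1* (chr11:40748552-40755311, minus strand) encodes cyclin G1, which recruits a phosphatase to *Mdm2* and is one of the most sensitive p53 targets. It stood at 341, 369, 367 and 355 CPM in WT and at 314, 322 and 372 CPM in WDR6-WKO. WDR6-WKO replicates 1 and 2 were below every WT library and replicate 3 was above every one. The log2 fold change of −0.09 (s.e. 0.06) missed the threshold (edgeR adjusted p = 0.319, exact permutation p = 0.257). *Ccng1* and *Cdkn1a* are the members with a full element in the promoter windows shown above. In WDR6-WKO replicates 1 and 2 they lay on opposite sides of the WT range, and in replicate 3 both lay above it.

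*Cdkn1a* (chr17:29090976-29100727, plus strand) encodes the cyclin-dependent kinase inhibitor through which p53 halts the cell cycle. Its WT libraries were tightly grouped at 183, 183, 182 and 179 CPM, and its WDR6-WKO libraries stood at 223, 224 and 192 CPM. There was no overlap, although WDR6-WKO replicate 3 was much closer to WT than the other libraries of its genotype. The means were 182 ± 1.70 CPM in WT and 213 ± 18.3 CPM in WDR6-WKO, and the log2 fold change was 0.23 with an s.e. of 0.06 (edgeR adjusted p = 0.0130, exact permutation p = 0.0286). *Cdkn1a* was the member called most often, in 12 of 15 alternative analyses, with fold changes of 0.17 to 0.30 on the log2 scale. The call was lost without WT replicate 4 (adjusted p = 0.0509), without WDR6-WKO replicate 1 (0.0849) and without WDR6-WKO replicate 2 (0.0740). An antisense gene, *AC167363.2*, shares 7.68% of the exon bases of *Cdkn1a* and had 21 to 45 reads a library of its own. Whether reads were counted by strand is not given in the sources used here.

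*Btg2* (chr1:134075170-134079120, minus strand), an antiproliferative partner of the mRNA deadenylation machinery, stood at 68.2, 70.0, 66.8 and 71.0 CPM in WT and at 67.1, 61.5 and 54.1 CPM in WDR6-WKO. WDR6-WKO replicate 1 lay inside the WT range and the other libraries of that genotype lay below it. The log2 fold change was −0.18 with an s.e. of 0.07 (edgeR adjusted p = 0.103, exact permutation p = 0.0571). Of these arrest genes, *Cdkn1a* passed the test and *Btg2* did not.

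*Bax* (chr7:45461697-45466898, minus strand) encodes the protein that opens the outer mitochondrial membrane in apoptosis. Its WT libraries stood at 71.7, 71.1, 70.3 and 66.4 CPM and its WDR6-WKO libraries at 80.4, 90.6 and 68.9 CPM. Replicates 1 and 2 of WDR6-WKO were above every WT library and replicate 3 was within the WT range. The log2 fold change was 0.20 with an s.e. of 0.08 (edgeR adjusted p = 0.104, exact permutation p = 0.143). A gene on the same strand, Gm45808, shares 12.2% of the exon bases of *Bax*, so part of these reads could be divided between them in counting.

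*Phlda3* (chr1:135766119-135769136, plus strand) encodes a small lipid-binding protein that competes with Akt at the membrane. With all libraries it had the widest fold change of any member, but that of *Sesn1* was wider with the replicate block, without WDR6-WKO replicate 2 and with the correction for GC content and length. The WT libraries stood at 41.3, 40.4, 40.7 and 36.5 CPM and the WDR6-WKO libraries at 56.0, 59.4 and 38.9 CPM. WDR6-WKO replicates 1 and 2 were well above WT, at 0.50 and 0.58 over the WT mean on the log2 scale, while replicate 3 was at −0.03. Across all 3 libraries the log2 fold change was 0.38 with an s.e. of 0.12, and the adjusted p of 0.0679 (edgeR) missed the threshold. The exact permutation p was 0.114. DESeq2 called the gene at an adjusted p of 0.0147. *Phlda3* was called in 3 of 15 alternative analyses, and with 1 library left out its edgeR adjusted p reached 0.220.

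*Sesn1* (chr10:41809935-41908424, plus strand) encodes sestrin 1, which restrains mTORC1 and supports antioxidant defence. It was the member with the lowest level, 154 to 205 reads a library. The values were 10.1, 10.4, 10.2 and 10.3 CPM in WT and 7.60, 8.36 and 8.60 CPM in WDR6-WKO. All WDR6-WKO libraries were below all WT libraries, at 80.0% of the WT mean, and replicate 3 did not stand apart. The log2 fold change was −0.32 with an s.e. of 0.10 (exact permutation p = 0.0286), and the edgeR adjusted p of 0.0504 lay just outside the threshold. It lay just inside with limma-voom (adjusted p = 0.0470), and with edgeR under median-of-ratios size factors (adjusted p = 0.0466) or a minimum of 10 counts in every library (adjusted p = 0.0485). *Sesn1* was called in 5 of 15 alternative analyses, and with 1 library left out its edgeR adjusted p reached 0.182.

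*Trp53inp1* (chr4:11156431-11174379, plus strand), which encodes a stress-induced partner of p53 with a part in autophagy, stood at 355, 352, 384 and 380 CPM in WT and at 305, 326 and 391 CPM in WDR6-WKO. As for *Ccng1*, WDR6-WKO replicates 1 and 2 lay below the WT range and replicate 3 above it. The log2 fold change was −0.11 with an s.e. of 0.07 (edgeR adjusted p = 0.344, exact permutation p = 0.343). *Zmat3* (chr3:32334792-32366014, minus strand), a zinc finger protein that binds RNA and alters splicing, was the flattest member. Its WT libraries spanned 89.1 to 97.9 CPM and its WDR6-WKO libraries stood at 89.7, 84.3 and 90.9 CPM, with an adjusted p of 0.322 (edgeR) and an exact permutation p of 0.257.

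The members differed from each other in every WDR6-WKO library, and the 3 libraries did not rank them alike. Replicate 3 minus the mean of replicates 1 and 2, on the log2 scale, ran from −0.57 in *Phlda3*, −0.31 in *Bax*, −0.25 in *Btg2*, −0.22 in *Cdkn1a* and −0.17 in *Trp53* to 0.22 in *Ccng1* and 0.31 in *Trp53inp1*. *Mdm2*, *Sesn1* and *Zmat3* lay between, at 0.14, 0.11 and 0.06. The order can be read beside the base composition and length of the transcripts, which were not separated here. *Bax* and *Phlda3* had the highest GC content of the members, 63.5% and 62.6%, followed by *Cdkn1a* (54.4%) and *Trp53* (53.3%). *Trp53inp1* and *Ccng1* had the lowest, 38.8% and 40.8%, with *Mdm2* (46.2%), *Zmat3* (47.6%), *Btg2* (49.7%) and *Sesn1* (49.8%) between. *Bax* (1100 bases) and *Phlda3* (1435 bases) also had the shortest of the members' longest transcripts, and *Trp53inp1* (5432 bases) and *Zmat3* (7797 bases) had the longest. Over all genes, the same difference between replicate 3 and replicates 1 and 2 ran from a median of 0.17 in the bin with the lowest GC content to −0.18 in that with the highest.

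**Figure D3:**
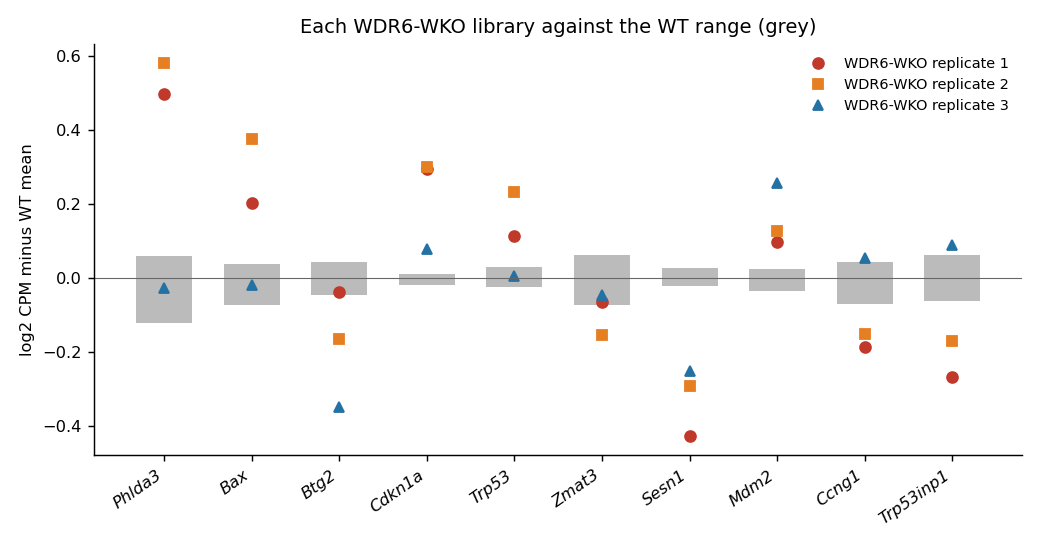
Level of each member in each WDR6-WKO library as log2 CPM minus the WT mean, with the WT range in grey, ordered by replicate 3 minus the mean of replicates 1 and 2. Replicate 3 lies 0.57 below the other libraries in Phlda3 and 0.31 above them in Trp53inp1.

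Left without WDR6-WKO replicate 3, the comparison of 2 WDR6-WKO with 4 WT libraries called 8 of the 10 members, 5 higher and 3 lower. Over all genes 28.6% were then called (14.5% higher and 14.1% lower). *Phlda3* rose by 0.54 on the log2 scale (s.e. 0.06, edgeR adjusted p = 6.19e-08), *Cdkn1a* by 0.30 (s.e. 0.04, adjusted p = 1.16e-06), *Bax* by 0.29 (s.e. 0.06, adjusted p = 0.000182), *Trp53* by 0.17 (s.e. 0.04, adjusted p = 0.00387) and *Mdm2* by 0.11 (s.e. 0.04, adjusted p = 0.0378). *Sesn1*, at −0.36 (adjusted p = 0.0248), *Trp53inp1*, at −0.22 (adjusted p = 0.000198), and *Ccng1*, at −0.17 (adjusted p = 0.00163), fell. *Btg2* (adjusted p = 0.181) and *Zmat3* (adjusted p = 0.121) did not pass. Leaving out each library in turn was planned, and this one is singled out because it stood apart. Against the WT mean, both WDR6-WKO libraries that were kept rose with GC content and fell with transcript length, as given above. In this fit those trends cannot be told apart from genotype.

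With each library corrected for GC content and transcript length, an analysis added after the values were seen, 5 of the 10 members were called, against 18.4% of all genes. *Cdkn1a* (log2 fold change 0.17, s.e. 0.04, edgeR adjusted p = 0.00201), *Mdm2* (0.15, s.e. 0.04, adjusted p = 0.00816) and *Phlda3* (0.26, s.e. 0.06, adjusted p = 0.00399) were higher in WDR6-WKO, and *Btg2* (−0.21, s.e. 0.06, adjusted p = 0.0159) and *Sesn1* (−0.33, s.e. 0.10, adjusted p = 0.0288) were lower. *Bax* came down from 0.20 to 0.06 (adjusted p = 0.436), and *Trp53* (0.10, adjusted p = 0.104), *Ccng1* (−0.09, adjusted p = 0.0865), *Trp53inp1* (−0.07, adjusted p = 0.274) and *Zmat3* (−0.02, adjusted p = 0.830) did not pass. No member changed direction in any of the 3 analyses. *Cdkn1a* and *Mdm2* were the members called in all 3.

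**Figure D4:**
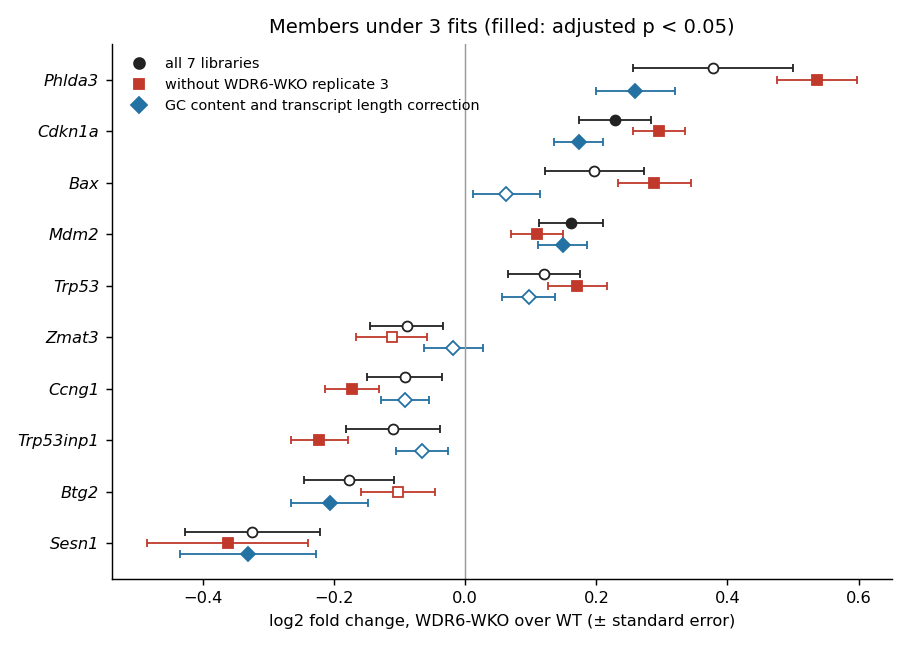
Log2 fold change of each member (WDR6-WKO minus WT, with s.e.) with all libraries, without WDR6-WKO replicate 3, and with correction for GC content and transcript length; filled points have an adjusted p below 0.05. Cdkn1a and Mdm2 are filled in all 3, and Bax moves from 0.20 to 0.06 under the correction.

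A wider list of 46 known p53 targets outside the 10 was read in the same fit, of which 44 were tested. Of these, 10 were higher and 2 lower in WDR6-WKO hepatocytes, 27.3% of those tested against 12.8% of all genes, and their median log2 fold change was 0.01. The list, like the members, was chosen with earlier results of these data known, so this share is a description. *Gadd45a*, which slows the cell cycle and aids DNA repair and is also induced by amino acid and endoplasmic reticulum stress, rose most: it spanned 13.5 to 16.6 CPM in WT and 27.2 to 37.3 CPM in WDR6-WKO (log2 fold change 1.07, s.e. 0.11, edgeR adjusted p = 1.56e-05). *Sesn2*, the stress-induced relative of *Sesn1*, rose from 51.9 ± 3.38 to 78.0 ± 6.96 CPM (0.59, adjusted p = 4.31e-05), opposite in sign to *Sesn1*. *Sulf2*, an extracellular sulfatase (0.49, adjusted p = 0.000265), *Plk2* (0.31, adjusted p = 0.000270) and *Plk3* (0.37, adjusted p = 0.00400), a pair of polo-like kinases, and *Gdf15*, a secreted stress hormone (0.41, adjusted p = 0.000910), rose as well. *Gadd45a*, *Sesn2* and *Gdf15* also answer to the ATF4 stress pathway, so they do not belong to p53 alone.

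By role, 3 of 5 cell cycle arrest genes, 3 of 12 apoptosis genes and 3 of 8 secreted or other genes were higher. In the same fit 6.65% of all genes were called higher and 6.18% lower. Of 9 metabolic and redox genes, 1 was higher and 2 were lower. The 6 remaining calls, named after their values were seen, were *Eda2r*, a death receptor (0.29, edgeR adjusted p = 0.0142), *Aen*, an apoptotic nuclease (0.27, adjusted p = 0.0232), *Bbc3*, which encodes the pro-apoptotic PUMA (0.60, adjusted p = 0.0422), and *Rps27l*, a ribosomal protein paralogue (0.20, adjusted p = 0.0403), all higher, with *Pank1*, a kinase of coenzyme A synthesis (−0.28, adjusted p = 0.0229), and *Lpin1*, a phosphatidate phosphatase (−0.25, adjusted p = 0.0328), lower. The 6 DNA repair genes and the 4 feedback genes missed the threshold. Among them, and named after their values were seen, *Ercc5*, an endonuclease of nucleotide excision repair, had a log2 fold change of −0.14 (adjusted p = 0.167), and *Ppm1d*, the phosphatase that dephosphorylates p53, one of −0.02 (adjusted p = 0.930). Without WDR6-WKO replicate 3, 12 of the 44 were called higher and 5 lower, where 14.5% of all genes were called higher and 14.1% lower. Without WT replicate 2, or WDR6-WKO replicate 1 or 2, the calls came to 7 in all. *Gadd45a*, *Sesn2*, *Sulf2*, *Plk2*, *Gdf15*, *Plk3* and *Eda2r* were called in each of 15 alternative analyses.

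**Figure D5:**
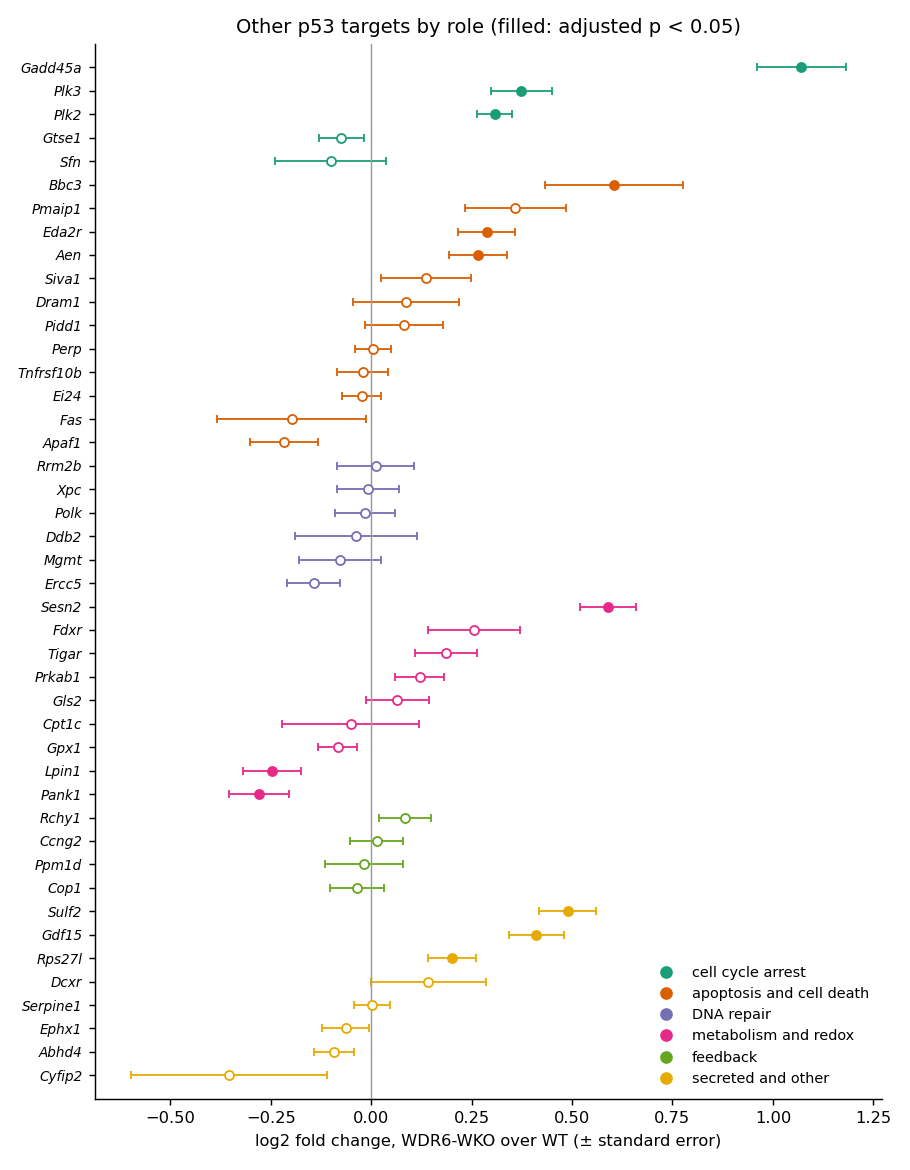
Log2 fold change (WDR6-WKO minus WT, all 7 libraries) of the 44 tested p53 targets outside the 10 members, coloured by role, with filled points for an adjusted p below 0.05. Gadd45a (1.07), Bbc3 (0.60) and Sesn2 (0.59) are highest among the called genes, and Pank1 (−0.28) is lowest.

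Genes that act on p53 were also read. Of 20 tested regulators, 1 was higher and 1 lower, or 10% called against 12.8% of all genes. *Daxx*, a chaperone that bridges *Mdm2* and its deubiquitinase, rose from 26.1 ± 0.995 to 34.8 ± 2.08 CPM (log2 fold change 0.42, edgeR adjusted p = 0.00101). *Trim24*, a ubiquitin ligase for p53, fell from 65.8 ± 1.45 to 50.7 ± 4.18 CPM (−0.38, adjusted p = 0.000883). Both were called in each of 15 alternative analyses, and without WDR6-WKO replicate 3, where 28.6% of all genes were called, the list had 4 genes higher and 6 lower. *Mdm4*, the partner of *Mdm2* and named after its value was seen, had a log2 fold change of −0.08 (adjusted p = 0.388). Cell cycle genes that p53 lowers through *Cdkn1a* and the DREAM repressor complex were read as well. Of 20 such genes, 2 were lower and none higher, or 10% called against 12.8% of all genes, with a median log2 fold change of −0.01. edgeR, DESeq2 and limma-voom each called these 2 and found no others at an unadjusted p below 0.05. They were *Mki67*, the proliferation marker, which fell from 344 ± 10.3 to 289 ± 34.2 CPM (−0.25, adjusted p = 0.0184), and *Cenpf*, a kinetochore protein, which fell from 71.3 ± 0.421 to 59.8 ± 7.83 CPM (−0.25, adjusted p = 0.0318). *Cdk1* (−0.04, adjusted p = 0.746) and *Ccnb1* (−0.06, adjusted p = 0.600), named after their values were seen, did not pass. Leaving out WT replicate 2, 3 or 4, or WDR6-WKO replicate 1 or 2, left 0 of the 20 called by edgeR, with 2 at an unadjusted p below 0.05. The count was 1 without WT replicate 1 and 6 lower without WDR6-WKO replicate 3, where 14.1% of all genes were called lower.

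Summed markers of Kupffer cells and of cholangiocytes were separate between the genotypes, and their part in the members' differences was not tested. The counts of called markers stand beside 6.65% of all genes called higher and 6.18% called lower. The 10 tested hepatocyte markers summed to 16007 to 19008 CPM in WT and 14348 to 16487 CPM in WDR6-WKO, 4 of them lower and none absent. These sums overlapped, and most of them was *Alb* and *Apob*, with WT means of 7366 and 5845 CPM. All 10 had a negative log2 fold change, with a median of −0.31. The 4 called were *Apoa1* (−0.69), *Cps1* (−0.69), *Fgb* (−0.45) and *Hnf4a* (−0.27). The 12 Kupffer cell (liver macrophage) markers summed to 860 to 939 CPM in WT and 993 to 1191 CPM in WDR6-WKO, 3 of them higher, with the lowest WDR6-WKO sum in replicate 3. The 5 tested cholangiocyte markers summed to 3068 to 3360 CPM in WT and 3713 to 4306 CPM in WDR6-WKO, 2 of them higher. Most of these sums was 1 gene, *Spp1*, with means of 2980 CPM in WT and 3693 CPM in WDR6-WKO. *Sox9* was the other called marker (log2 fold change 0.20). *Krt19* (−0.05) and *Krt7* (−0.10) were lower and *Epcam* (0.34) higher, and all of these missed the threshold. Of the 8 stellate cell markers, 1 was higher and 1 lower, and their sums overlapped between the genotypes. The 8 sinusoidal endothelial markers missed the threshold, with overlapping sums, and 1 of 8 lymphocyte markers was tested and missed it.

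The genes whose profile over the 7 libraries lay closest to *Trp53* or *Cdkn1a* were found by the root mean square difference of log2 CPM, centred on the WT mean. For *Trp53* they were *Rab29* (0.013), *S100a1* (0.016) and *Tmem234* (0.017). For *Cdkn1a* they were *Rexo4* (0.020), *Ptma* (0.023) and *Hsd17b10* (0.030). With fold changes of 0.11, 0.13 and 0.14 for the first 3 and of 0.24, 0.22 and 0.22 for the others on the log2 scale, they lay close to *Trp53* (0.12) and *Cdkn1a* (0.23) in the size of the difference, which the measure itself selects.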

How the data were processed

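RNA-seq libraries of 4 WT and 3 WDR6-WKO hepatocyte samples were analysed. The deposited values are raw read counts per gene that the authors made from reads aligned to mm10 with Bowtie2 2.2.3. The counting program, annotation and use of strand are not given in the sources used here. No gene has fewer than 50 reads in total, and 21 symbols had been turned into dates. Depth was 17816913 to 23668940 reads a library. CPM used library size with TMM scaling. Differences were tested with edgeR 4.0.16 (quasi-likelihood, robust, TMM, filterByExpr; R 4.3.3), with Benjamini-Hochberg adjustment over 14779 genes and a threshold of 0.05. Alternatives were DESeq2 1.42.0, limma-voom (limma 3.58.1), other scalings and filters, the replicate block, each library left out, and, added after seeing the data, a correction for GC content and length (loess span 0.5). Single genes had exact permutation tests. All columns were used.

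The members and lists were chosen with earlier results of these data known. All members are named, and from other lists, genes with an adjusted p below 0.05, at most the 6 with the smallest p, and the 3 nearest profiles for *Trp53* and *Cdkn1a*. Exceptions are stated in the text. Gene positions are from GENCODE M21 (GRCm38), promoters from RefSeq.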

Additional observations from a re-analysis of the deposited data

How the results depend on the processing

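No result reversed under any alternative. Of the 10 members, 2 were called with all libraries, 5 with the correction for GC content and length, and 1 by the study's thresholds applied to the edgeR fit. Leaving out 1 library gave 0 to 8 members. The count was 1 without WT replicate 1, 2 or 3, 0 without WT replicate 4 (4 at an unadjusted edgeR p below 0.05), 1 without WDR6-WKO replicate 1 (*Btg2*), 0 without WDR6-WKO replicate 2 (5 unadjusted) and 8 without WDR6-WKO replicate 3. Of the wider targets, 7 to 17 were called with 1 library left out and 7 by the study's thresholds. Regulators gave 2 to 10 with 1 library left out. The DREAM genes gave 0 to 6 with 1 library left out, 1 under the correction and 0 by the study's thresholds. Over all genes the counts ran from 1032 to 4233. The highest, 28.6% of the genes tested, came without WDR6-WKO replicate 3, against 12.8% with all libraries. Among the fits with 1 library left out, that fit also gave the highest count of each of these lists. With all libraries, *Trp53*, *Ccng1*, *Trp53inp1* and *Zmat3*, near 0.1 either way on the log2 scale, had s.e. of 0.05 to 0.07 and missed the threshold. Whether changes of that size can be resolved with 3 WDR6-WKO libraries that differ this much was not tested.

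With the replicate block the count of members was 1, *Cdkn1a* (*Mdm2* adjusted p = 0.0849, edgeR), and 1762 genes were called in all. Same-numbered WT and WDR6-WKO libraries showed little shared deviation (correlations over genes 0.06, 0.03 and 0.05). Differently numbered libraries were not compared, so these values do not settle whether the numbers pair the samples.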

Other observations

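Immediate early genes, which cells switch on within minutes of stress, growth factors or handling, were read because isolation of hepatocytes can induce them. Of 12, 3 were higher and 1 lower in WDR6-WKO hepatocytes, where 12.8% of all genes were called. *Atf3*, a stress-induced repressor that answers to p53 and to ATF4, rose from 21.3 ± 2.31 to 40.6 ± 2.73 CPM (log2 fold change 0.93, edgeR adjusted p = 3.25e-06). *Fosb* rose from 3.50 ± 0.121 to 5.66 ± 0.933 CPM (0.70, edgeR adjusted p = 0.00608) and *Jun* from 80.5 ± 6.99 to 98.8 ± 9.64 CPM (0.30, adjusted p = 0.0191). *Egr1*, a growth factor response gene, fell from 179 ± 11.5 to 128 ± 1.67 CPM (−0.49, adjusted p = 2.90e-05). The ranges of the genotypes did not overlap for any of these 4 genes, and 23.5% of all genes had separate ranges. The call of *Jun* was lost without WT replicate 2 or 4 or WDR6-WKO replicate 1 or 2 (edgeR adjusted p = 0.0547 to 0.101), and that of *Fosb* without WDR6-WKO replicate 1 (0.0562).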
